A study of Canis lupus familiaris with 10 samples.

Results

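Chromosome 11 of the dog carried 1718 of the 59420 accessible regions that were found over 10 ATAC-seq libraries of the canine B-cell lymphoma lines 17-71 and CLBL-1. The members were chosen by position alone, after touching or overlapping peaks of all 10 libraries had been merged, and every merged region on chromosome 11 was kept. A region therefore had at least 1 peak in at least 1 library, and this measured property was used in the selection. No 2 neighbouring members lay closer than 174 bp to each other. Chromosome 11 was picked with the difference between the lines in its share of peaks already known, so that difference is given below as a description with no test.

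The libraries fell into 4 groups of cultured cells whose labelled source is lymph node. From 17-71, collected on day 4, came 3 controls (B1, B2, B3) and 2 libraries with 100 nM C220 (B4, B6). From CLBL-1, collected on day 2, came 2 controls (C2, C3) and 3 libraries with 100 nM C220 (C4, C5, C6). C220, called PR220 in the sample labels, inhibits PRMT5. The line and the day of collection cannot be told apart, which limits every comparison of the lines. The study describes its ATAC-seq replicates as biological, but the labels do not say whether libraries of a group came from separate cultures, so p-values measure the spread between these libraries, which may in part be technical. B-cell markers were not checked, since no annotation of CanFam3.1, the build of the peaks, was used here.

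ATAC-seq uses a transposase that inserts adapters where DNA is free of nucleosomes, and stretches dense in insertions are called as peaks. Promoters and enhancers in use are the usual sites of such peaks, so the pattern of peaks differs between cell types and between tumours of one type. Each peak comes with a fold enrichment, which is the fragment pileup over the local background. PRMT5 places symmetric dimethyl marks on arginines, including those of histones, and is known as a repressor of transcription.

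The libraries differed in list length before chromosome 11 was considered. B1 held 44378 peaks over the genome, the longest list, and B4 held 22076, the shortest. The other lists were 33358 (B2), 30943 (B3), 27646 (B6), 23822 (C2), 23318 (C3), 27026 (C4), 27247 (C5) and 23082 (C6) peaks long. The read depth behind these lists is unknown, and the absence of a peak does not show that a site was closed.

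On chromosome 11 the 17-71 control libraries held 1214, 900 and 834 peaks and the 17-71 C220 libraries held 598 and 727. The CLBL-1 control libraries held 820 and 791 peaks, and the CLBL-1 C220 libraries held 891, 865 and 753. Both C220 libraries of 17-71 thus lay below all 3 of its controls, whereas the groups of CLBL-1 overlapped. When divided by the length of each library's own list, the 5 libraries of 17-71 fell close together and below those of CLBL-1.

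Chromosome 11 took 2.74%, 2.70%, 2.70%, 2.71% and 2.63% of the peaks of B1, B2, B3, B4 and B6. It took 3.44%, 3.39%, 3.30%, 3.17% and 3.26% of the peaks of C2, C3, C4, C5 and C6. The means were 2.69% ± 0.039 (SD, n = 5) in 17-71 and 3.31% ± 0.106 (SD, n = 5) in CLBL-1, a difference of -0.620 percentage points. Only chromosomes 9 and 20 of the 39 had a larger deficit in 17-71, and by the ratio of the shares chromosome 11 ranked 6 from the lowest. Such differences were common: 82.1% of the 39 chromosomes had a share that differed between the lines and 43.6% had a lower share in 17-71, at an adjusted threshold of 0.05 in exact permutation tests with Benjamini-Hochberg adjustment. The share of covered length gave the same picture, at 2.69% ± 0.031 in 17-71 and 3.33% ± 0.111 in CLBL-1 (SD, n = 5 each).

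**Figure D1:**
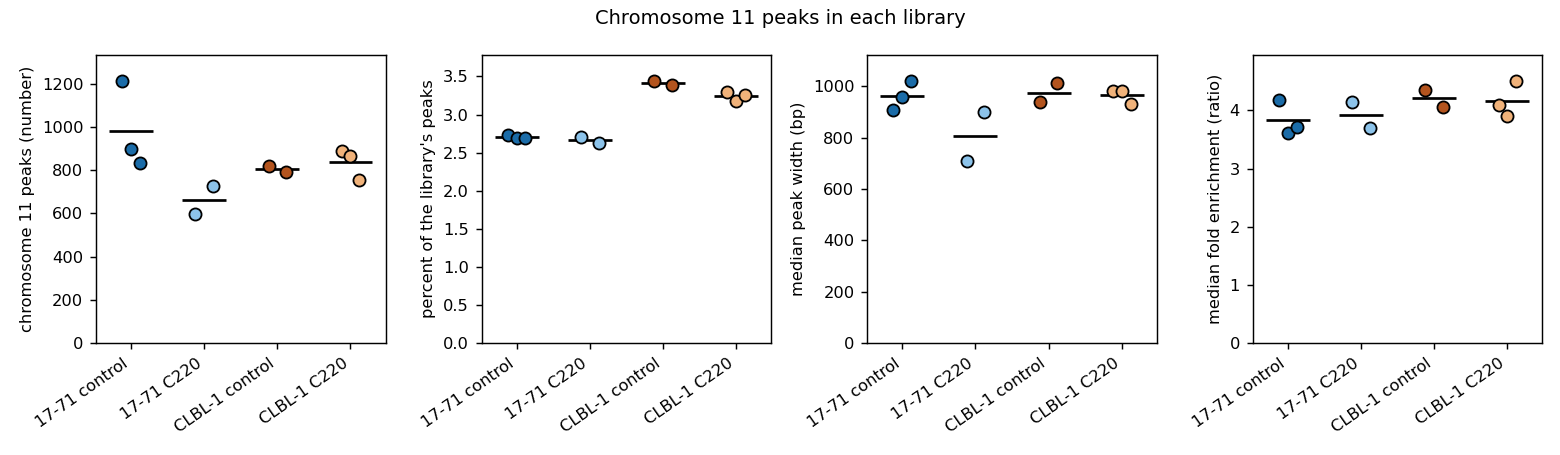
Number of chromosome 11 peaks, their percent of the library's peaks, their median width in bp and their median fold enrichment (a ratio), with 1 point per library and a line at the mean of each of the 4 groups. The percent of peaks separates the lines (2.63 to 2.74 against 3.17 to 3.44), and the number of peaks is lowest in the 2 C220 libraries of 17-71.

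The members were spread over the whole chromosome, from position 124 to position 74373163. Each of the 75 windows of 1 Mb held at least 1 region, with a median of 22 and a maximum of 54 regions per window. The 10 densest windows held 30.6% of the 8393 peaks of all libraries. The window at 52 to 53 Mb was the densest, with 311 peaks over the 10 libraries, and the first megabase followed with 309. In the first megabase the lines overlapped, at 11.1 ± 1.78 peaks per 10000 peaks of the library in 17-71 and 11.2 ± 0.515 in CLBL-1 (SD, n = 5 each). It also held 17 regions with a peak in all 10 libraries, the most of any window. The window at 56 to 57 Mb was likewise dense, at 8.72 ± 0.743 and 8.38 ± 1.32 peaks per 10000 (SD, n = 5 each).

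Along the chromosome the lines differed window by window, in both directions. Of 68 windows with at least 10 peaks, 17 were higher in 17-71 and 29 were higher in CLBL-1 (exact permutation test on peaks per 10000 peaks of the library, two-sided, Benjamini-Hochberg adjustment over 2235 windows of the genome, threshold 0.05). The corresponding shares over the genome were 36.3% higher in 17-71 and 27.6% higher in CLBL-1, against 25% and 42.6% on chromosome 11. In 36 of the 68 windows the 5 libraries of one line all lay beyond the 5 of the other (52.9%, against 52.9% over the genome). The peaks per 10000 of the windows sum to the chromosome's share, whose difference between the lines was known beforehand, so the excess of windows higher in CLBL-1 is a description that restates that share. When each window was taken relative to the library's own chromosome 11 peaks, an alternative chosen after seeing the data, 22 windows were higher in 17-71 and 19 in CLBL-1, or 32.4% and 27.9% of those tested, beside 34.0% and 25.6% over the genome. On the scale of peaks per 10000, the 20000 strongest peaks of each library gave 9 windows higher in 17-71 and 23 in CLBL-1 of 63 tested (14.3% and 36.5%, against 27.5% and 25.3% over the genome). Peaks of a -log10 p of at least 10 gave 9 and 27 of 61 (14.8% and 44.3%, against 26.8% and 24.6%). For the windows described next, the p-values are those of the chromosome 11 scale, from which the difference in share is removed.

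**Figure D2:**
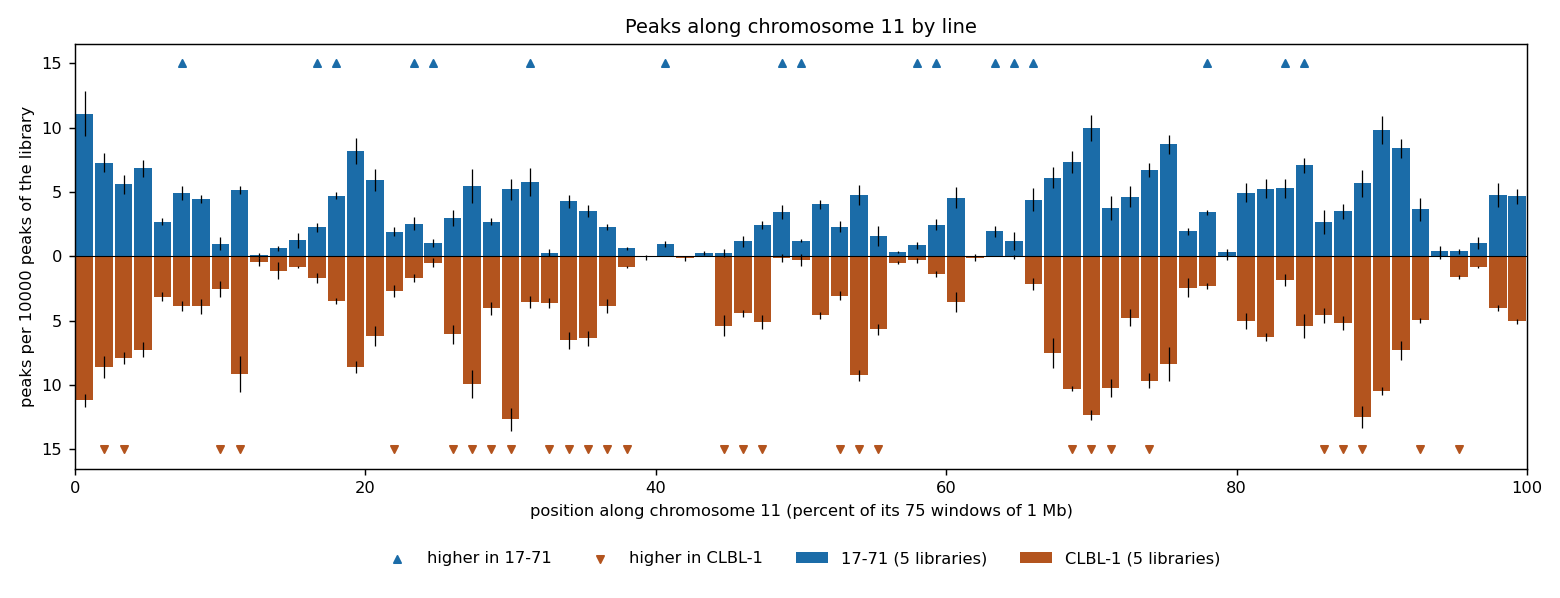
Mean peaks per 10000 peaks of the library in the 75 windows of 1 Mb along chromosome 11, with 17-71 upwards and CLBL-1 downwards, error bars of 1 SD over 5 libraries, and triangles at the 17 windows higher in 17-71 and the 29 higher in CLBL-1. Both lines are dense near the start and around the same later blocks and sparse between them. The triangles of each line come in short runs, on a scale that carries the share difference known beforehand.

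On the scale of peaks per 10000, which carries the share difference known beforehand, windows higher in the same line often adjoined. The longest run on this scale ran from 24 to 29 Mb, 5 windows that were all higher in CLBL-1. It had 263 peaks summed over the CLBL-1 libraries and 174 over those of 17-71. On the chromosome 11 scale its last window had means of 0.230% in 17-71 and 0.244% in CLBL-1. The means of its other windows stayed higher in CLBL-1 on that scale. The longest run followed a run of 4 windows at 19 to 23 Mb with 405 and 266 peaks. The single window between them was higher in 17-71. Other CLBL-1 runs of 3 windows lay at 33 to 36, 39 to 42, 51 to 54 and 64 to 67 Mb. On the chromosome 11 scale the middle window of 51 to 54 Mb had means of 3.69% in 17-71 and 3.73% in CLBL-1. The first window of 39 to 42 Mb had 0.859% and 0.923%. The other windows of these runs kept the higher mean in CLBL-1. Which runs hold once the share difference is removed is not given here. The only 17-71 run of 3 windows lay at 47 to 50 Mb and summed to 116 peaks in 17-71 and 28 in CLBL-1. At 36 to 38 Mb a run of 2 windows had 74 peaks in 17-71 and 6 in CLBL-1, and it directly followed the CLBL-1 run at 33 to 36 Mb with 61 and 185 peaks.

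The largest excess in CLBL-1 was at 22 to 23 Mb, where its libraries held 31, 30, 32, 32 and 32 peaks. The 17-71 libraries held 29, 18, 15, 11 and 12 there. The means were 12.7 ± 0.884 peaks per 10000 in CLBL-1 and 5.22 ± 0.826 in 17-71 (SD, n = 5 each). As a share of each library's chromosome 11 peaks they were 3.82% ± 0.252 and 1.94% ± 0.282 (SD, n = 5 each, exact permutation p = 0.00794, the smallest that 5 against 5 allow, adjusted p = 0.0156). The libraries of the lines did not overlap on either scale, although B1 came near CLBL-1 in raw number. Of the 43 regions in this window, 7 had a peak in every CLBL-1 library and in no 17-71 library, and none showed the reverse. Over the genome 6.76% of regions were of the first kind and 10.9% of the second. The window was chosen for its excess in CLBL-1, so these counts follow in large part from the choice.

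The windows at 66 to 67 and 53 to 54 Mb showed the same direction. At 66 to 67 Mb the means were 12.5 ± 0.834 per 10000 in CLBL-1 and 5.68 ± 1.05 in 17-71, and at 53 to 54 Mb they were 10.2 ± 0.695 and 3.75 ± 0.920 (SD, n = 5 each). Each of these windows held 9 regions with a peak in all CLBL-1 libraries and none in 17-71, more than any other window of the chromosome. They were among 50 regions at 66 to 67 Mb and 37 at 53 to 54 Mb, beside 6.76% of regions over the genome. Each window was chosen for its excess in CLBL-1, so these counts follow in large part from that choice. At 33 to 34 Mb the CLBL-1 libraries held 12, 15, 14, 16 and 10 peaks and the 17-71 libraries 3, 1, 0, 0 and 1, so this stretch was close to empty in one line and populated in the other. Relative to the chromosome 11 peaks of each library, these 3 windows kept this direction without overlap of the lines, at 3.76% against 2.11%, 3.09% against 1.39% and 1.62% against 0.0992% (adjusted exact permutation p = 0.0156 each).

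In the other direction, the window at 62 to 63 Mb held 23, 18, 20, 11 and 12 peaks in 17-71 and 4, 6, 5, 5 and 3 in CLBL-1. The means were 5.27 ± 0.774 and 1.85 ± 0.462 per 10000 (SD, n = 5 each), and 1.96% and 0.557% of the chromosome 11 peaks (adjusted exact permutation p = 0.0156). Of its 24 regions, 8 had a peak in all 17-71 libraries and none in CLBL-1, beside 10.9% of regions over the genome. This window was chosen for its excess in 17-71, so the count follows in large part from that choice. The window at 36 to 37 Mb held 16, 12, 12, 8 and 7 peaks in 17-71, and in CLBL-1 only C5 had any, namely 2. Its adjusted exact permutation p on the chromosome 11 scale was 0.0156. On the scale of peaks per 10000 and with peaks of a -log10 p of at least 10 alone, this window no longer passed the threshold (adjusted permutation p = 0.0807).

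The window at 23 to 24 Mb, next to the largest CLBL-1 excess, was higher in 17-71, at 5.79 ± 1.08 against 3.55 ± 0.458 per 10000. The window at 49 to 50 Mb was higher in 17-71 too, at 4.40 ± 0.914 against 2.17 ± 0.474 (SD, n = 5 each). In both windows the groups did not overlap, and the adjusted exact permutation p on the chromosome 11 scale was 0.0156. Among the tested windows, 2 had peaks in every 17-71 library and none in CLBL-1. The share of such windows over the genome is not given here, so this count is a description. The 2 windows were 47 to 48 Mb with 8, 7, 6, 3 and 7 peaks and 30 to 31 Mb with 4, 4, 2, 2 and 3 peaks. With peaks of a -log10 p of at least 10 alone, these windows held 4 and 3 peaks in all, from controls only, and were too sparse to be tested, and with lists of 20000 peaks the window at 30 to 31 Mb held 9 and was not tested either.

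**Figure D3:**
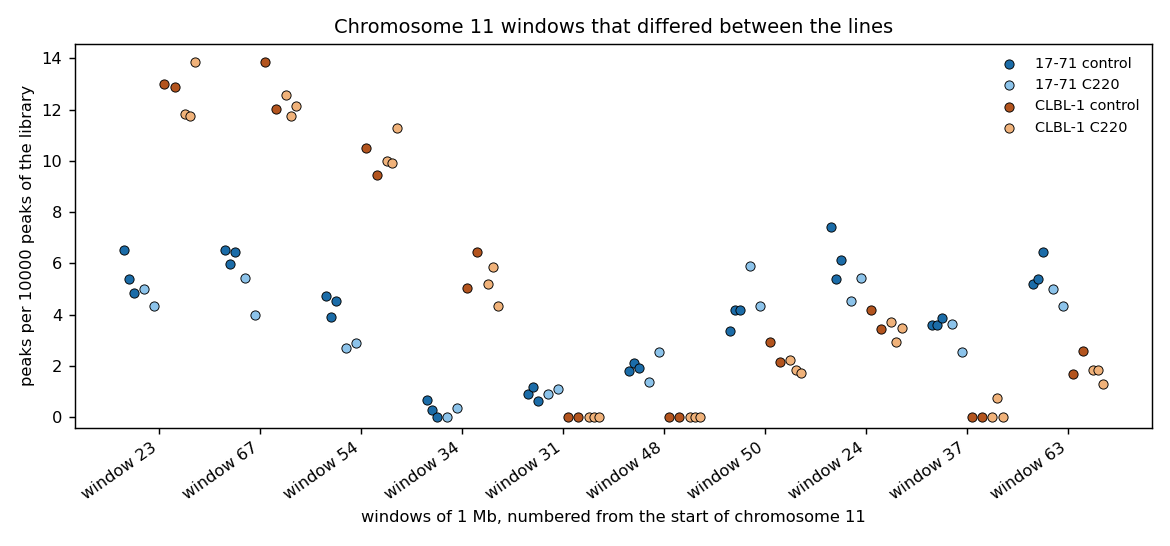
Peaks per 10000 peaks of the library in the 10 windows described in the text, numbered from the start of the chromosome so that window 23 covers 22 to 23 Mb, with 1 point per library coloured by group. In the first 4 windows all CLBL-1 libraries lie above all 17-71 libraries, in the other 6 the order is the reverse, and windows 31 and 48 are at 0 in all 5 CLBL-1 libraries.

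The control and C220 means of a line lay closer together in these windows than the means of the lines. The windows had been named for large differences between the lines, so this order follows in large part from the choice. At 22 to 23 Mb the 17-71 means were 5.59 per 10000 in controls and 4.66 with C220, and the CLBL-1 means were 12.9 and 12.5. At 62 to 63 Mb they were 5.68 and 4.66 in 17-71 and 2.13 and 1.66 in CLBL-1. With 3 against 2 libraries no exact p can fall below 0.1, so the windows are given without a test of treatment. In 17-71 both C220 libraries lay above all controls in 16 of the 68 windows (23.5%, against 20.0% over the genome) and below them in 14 (20.6%, against 15.6%). In CLBL-1 the C220 libraries lay above both controls in 4 windows (5.88%, against 11.8%) and below them in 13 (19.1%, against 11.6%).

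Long stretches were picked that lacked any peak of one line and held a peak of every library of the other. Their split by line therefore follows from the choice, and they are a description. The longest without a peak of any CLBL-1 library, among those with a peak of every 17-71 library, was chr11:29756971-31512021, 1.76 Mb long, in which 17-71 had 4, 4, 2, 2 and 3 peaks. The next, chr11:46641737-48364325, was 1.72 Mb long and held 10, 9, 6, 5 and 8 peaks of 17-71 in 14 regions. These stretches cover the windows at 30 to 31 and 47 to 48 Mb named above and add no separate evidence. In 17-71 the peak-free stretches that held CLBL-1 peaks were shorter, namely chr11:70529242-71355741 with 1 peak in each CLBL-1 library and chr11:41854071-42592909 with 1 or 2. Longer stretches of the same kind occurred elsewhere in the genome, where those of CLBL-1 ranked 47 and 54 and those of 17-71 ranked 27 and 39 by length.

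Counted by presence, 288 of the 1718 regions (16.8%, against 15.4% of all regions of the genome) had a peak in all 10 libraries. A further group was private to a line: 656 regions (38.2%, against 45.4%) had peaks in 17-71 only and 407 (23.7%, against 18%) in CLBL-1 only, with the remaining 655 shared in part or in full. The strict classes, with a peak in 5 of 5 libraries of one line and 0 of 5 of the other, held 139 regions for 17-71 (8.09%, against 10.9%) and 151 for CLBL-1 (8.79%, against 6.76%). As chromosome 11 was picked with its lower share of 17-71 peaks known, these shares are a description. Regions seen in 1 library numbered 338 (19.7%, against 20.7%), and 153 of these (8.91%, against 9.99%) came from B1, the longest list. Where a peak had to cover at least 50% of a region, the strict classes held 91 and 136 regions (5.30% and 7.92%, against 7.80% and 6.64% over the genome). With peaks of a -log10 p of at least 10 they held 43 and 89 of 912 regions (4.71% and 9.76%, against 6.84% and 7.56%). With lists of 20000 peaks they held 94 and 175 of 1172 (8.02% and 14.9%, against 12.1% and 12.1%).

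**Figure D4:**
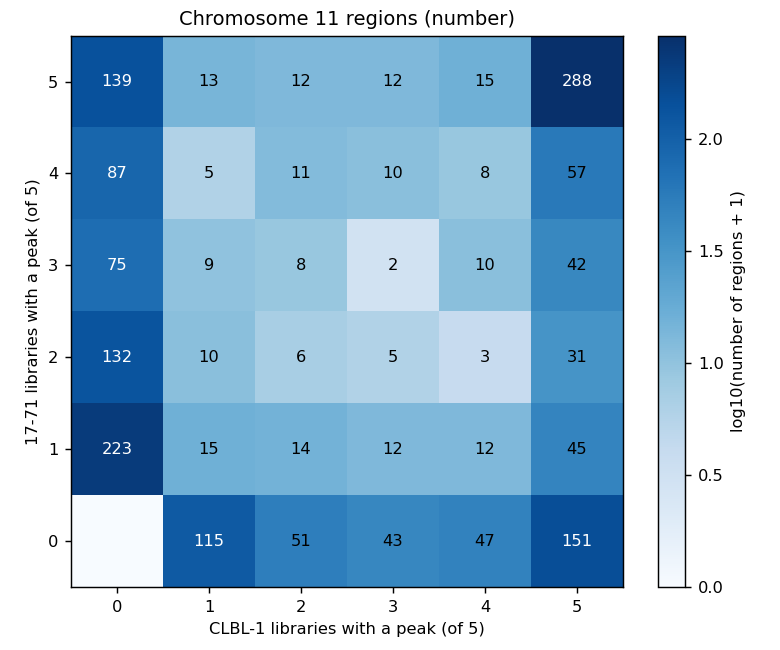
Number of chromosome 11 regions by how many of the 5 libraries of 17-71 (vertical axis) and of CLBL-1 (horizontal axis) had a peak, with colour on a log10 scale. The fullest cells are 288 regions with a peak in all 10 libraries, 223 in a single 17-71 library, 151 in all 5 of CLBL-1 alone and 139 in all 5 of 17-71 alone.

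The classes were scattered. Strict 17-71 regions occurred in 48 windows, strict CLBL-1 regions in 50, and 36 windows held both kinds. Regions with a peak in all 10 libraries lay in 57 of the 75 windows. The merged width followed presence, with a median of 1108 bp over all members, 1644.5 bp where all 10 libraries had a peak, 1226 bp and 1274 bp in the strict 17-71 and CLBL-1 classes and 530.5 bp where a single library did. Over the genome the medians were 1078 bp for all regions and 1669 bp for those in all 10 libraries. The mean fold enrichment was ordered alike, with a median of 4.80 in regions of all 10 libraries, 4.23 and 4.29 in the strict classes and 3.46 in single-library regions. More libraries in a merge can only widen a region, so these widths are a description.

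Among strict 17-71 regions, the strongest by its weakest peak was chr11:68772972-68775717. Its fold enrichment was 7.11, 5.44 and 5.09 in the controls and 6.55 and 5.37 with C220, and its lowest -log10 p was 42.7. The second, chr11:6386566-6388238, had folds of 5.27, 4.94, 4.77, 6.18 and 4.96, and the third, chr11:67257013-67258434, had folds of 6.35, 6.05, 5.77, 5.76 and 6.11. These sites were far above the calling threshold of 5 in every 17-71 library and had no peak in CLBL-1.

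Among strict CLBL-1 regions, chr11:53756766-53758138 led, with folds of 6.65 and 6.50 in the controls and 6.51, 6.31 and 7.11 with C220. Its lowest -log10 p was 65.2. The second, chr11:73918259-73919224, had folds between 7.82 and 8.53. The third, chr11:53696827-53698935, lay in the same window as the first and had folds between 4.22 and 4.81. No 17-71 library had a peak in any of these regions, and the values of control and C220 libraries overlapped in each.

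Regions open in every library included the strongest sites of the chromosome. The highest mean fold, 13.1, was at chr11:26805330-26805790, with 13.8, 11.4 and 11.04 in 17-71 controls, 14.7 and 12.9 in 17-71 with C220, 13.6 and 12.2 in CLBL-1 controls and 14.5, 14.6 and 12.7 in CLBL-1 with C220. The study pairs this region with a gene named RF00002, the Rfam family of 5.8S ribosomal RNA, and labels the relation upstream. The next were chr11:2554082-2554871 with a mean fold of 9.45 and chr11:55455063-55455692 with 8.81. The widest regions of this class, chr11:40859190-40864371 (5182 bp), chr11:23441799-23446895 (5097 bp) and chr11:74187417-74192313 (4897 bp), had low mean folds of 3.96, 3.56 and 3.43.

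Of the 16 region and gene pairs of chromosome 11, 8 carry a gene name that RefSeq also holds. The pairs come from the study's list of tested regions, of which only part was held and which is ordered on these same libraries, so these genes are no sample of the chromosome. TRIM7, a ubiquitin ligase gene, was paired with chr11:403490-405417, which was open in all 10 libraries with folds from 4.53 to 7.0. ZNF608, a zinc finger gene, was paired with chr11:14407247-14410452, also open in all 10, at the lower folds of 3.20 to 4.31.

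BNC2, which encodes a zinc finger protein, carried a strict 17-71 region, chr11:36948299-36948935, which the study places inside the gene. Its folds were 7.87, 5.83 and 7.0 in controls and 4.02 and 3.49 with C220, and no CLBL-1 library had a peak. The -log10 p was 26.5, 18.5 and 21.6 in controls and 6.22 (B4) and 5.85 (B6) with C220. Its place in the strict class thus rested on C220 peaks close to the calling threshold. The C220 values lay below all control values, which was not tested, as regions without CLBL-1 peaks did not enter the test of folds. The region lies in the window at 36 to 37 Mb that was nearly free of CLBL-1 peaks. In the RefSeq annotation of the assembly UU_Cfam_GSD_1.0, BNC2 lies between CCDC171 and CNTLN.

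KLF4, a transcription factor gene known for its part in pluripotency, was paired with chr11:62881039-62882243, which lies in the window at 62 to 63 Mb that was higher in 17-71. Only B1 and B3 had a peak there, with folds of 3.34 and 3.40 and -log10 p of 5.03 and 5.85, close to the calling threshold. ADAMTS2, which encodes a procollagen protease, was paired with chr11:2279030-2279886, where only B1 had a peak (fold 3.26). Both sites were thus called in few libraries and near the threshold.

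JADE2, which encodes a subunit of a histone acetyltransferase complex, was paired with the widest of all 1718 members, chr11:22645569-22650931 (5363 bp). It lies in the window at 22 to 23 Mb that was higher in CLBL-1. All 5 CLBL-1 libraries had a peak, with folds of 3.82 and 3.31 in controls and 3.61, 3.33 and 3.79 with C220. In 17-71 the controls had peaks with folds of 3.31, 2.92 and 2.65 and the C220 libraries had none. The -log10 p of these control peaks was 12.5 in B1, 6.56 in B2 and 5.54 in B3, so B2 and B3 lay near the calling threshold and B1 did not. JADE2 lies between CDKN2AIPNL and SAR1B in RefSeq.

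DMAC1, which encodes an assembly factor of respiratory complex I, was paired with chr11:28650582-28651905, with a peak in every library except B4 and folds of 3.13 to 4.98 in 17-71 and 4.55 to 5.44 in CLBL-1. TBC1D9B, whose product has a domain of Rab regulators, was paired with chr11:1791042-1791914. Its folds were 7.84, 5.79 and 5.86 in 17-71 controls and 4.65 and 4.75 with C220, against 7.39 to 8.71 in CLBL-1. The 17-71 groups did not overlap, but the difference (log2 -0.39, SE 0.10) did not pass the threshold in limma (Benjamini-Hochberg adjusted p = 0.0936).

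Of 48 genes listed for lookup, 42 are on chromosome 11 in RefSeq, but only their order relative to the paired genes could be used. The cytokine genes IL3, IL4, IL5, IL13 and CSF2 and the factors IRF1 and TCF7 lie between ZNF608 and JADE2. The cell cycle inhibitors CDKN2A and CDKN2B and the B-cell genes PAX5, a master factor of B-cell identity, and CD72 lie between BNC2 and KLF4. TLR4, TNFSF8 and TNFSF15 lie beyond KLF4. These intervals span many windows of both directions, so no region was assigned to these genes.

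The C220 libraries of 17-71 had the lowest numbers of chromosome 11 peaks, without passing a test. The mean number was 663 ± 91.2 (SD, n = 2) with C220 and 983 ± 203 (SD, n = 3) in 17-71 controls (exact permutation p = 0.2). The covered length was 628 ± 169 kb against 1069 ± 169 kb, and the median width 806 ± 136 bp against 963 ± 56.8 bp, each with an exact permutation p of 0.1, the smallest that 3 against 2 libraries allow, and no overlap of the groups. The width difference of -157 bp became -60.8 bp without B4 and -253 bp without B6. The share of the library's peaks was 2.67% ± 0.056 against 2.71% ± 0.023 (exact permutation p = 0.4), since the whole lists were shorter too. In CLBL-1 the number was 836 ± 73.3 (SD, n = 3) with C220 and 806 ± 20.5 (SD, n = 2) in controls (exact permutation p = 0.6), and the median widths were 965 ± 28.3 bp and 976 ± 53.7 bp (p = 0.9). The share was lower with C220 in all 3 libraries, at 3.24% ± 0.063 against 3.42% ± 0.035 (exact permutation p = 0.1). The mean of the median fold was 3.92 ± 0.320 with C220 and 3.84 ± 0.300 in controls of 17-71 (exact permutation p = 0.8), and 4.17 ± 0.306 and 4.21 ± 0.211 in CLBL-1 (exact permutation p = 1). These groups overlapped in both lines.

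Site by site, 87 of the 1311 chromosome 11 regions with any 17-71 peak (6.64%, against 6.94% over the genome) had a peak in all 3 controls and in neither C220 library, and 3 regions (0.229%, against 0.211%) showed the reverse. These shares were close to the background. The 87 lost regions were spread over 41 windows, with at most 6 in a window, at 66 to 67 Mb. They were weaker by their weakest control peak, with a median of 5.96 for its -log10 p, against 12.6 in the 479 regions that all 5 libraries of 17-71 carried. Of the 87, 47 had a peak in CLBL-1 and 28 in all 5 of its libraries. The corresponding shares over the genome are not given here, so these counts describe the 87 alone. With lists of 20000 peaks, 17 regions were lost and 18 gained (2.22% and 2.35%, against 2.44% and 2.23% over the genome). With peaks of a -log10 p of at least 10 alone, 80 were lost and 1 gained (11.8% and 0.148%, against 12.03% and 0.0283%). Where a peak had to cover 50% of a region, 117 were lost and 3 gained (9.43% and 0.242%, against 9.03% and 0.220%). As fewer libraries then had to concur, the lost count without B2, B3 or B6 was 148, 162 or 208 (11.6%, 12.4% and 16.1%, against 10.8%, 12.2% and 17.1% over the genome). The gained count without B1, B4 or B6 was 11, 26 or 21 (1.02%, 2.01% and 1.63%, against 0.946%, 2.19% and 1.86%).

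The lost sites of 17-71 with the strongest weakest peak were chr11:50199185-50200521, with control folds of 2.90, 2.69 and 2.91, and chr11:40108610-40110607, with 5.70, 5.98 and 4.44. Neither had a peak in CLBL-1. Of the 3 gained sites, the 2 with the strongest weakest peak were chr11:11334691-11335379, with folds of 4.13 and 4.25, and chr11:69857762-69858262, with 3.69 and 3.66. Their -log10 p ranged from 6.52 to 8.50, close to the calling threshold.

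In CLBL-1, 5 of 1062 regions (0.471%, against 0.499%) were lost and 4 (0.377%, against 1.71%) were gained. Among the lost were chr11:8568796-8569557 (folds 3.49 and 3.21 in controls) and chr11:7990055-7990602 (5.89 and 3.85, with a further peak of fold 3.80 in B4). Among the gained were chr11:39598557-39599138 (4.73, 3.53 and 4.56 with C220, and 8.35 in B1) and chr11:56583795-56584664 (3.16, 2.87 and 3.44, with 2.36 and 2.25 in B1 and B2). All 4 gained regions had a peak in 17-71. These counts rested on few sites and moved with each library. Without C2, C3, C4, C5 or C6 the lost count was 29, 46, 12, 10 or 8 (2.84%, 4.41%, 1.18%, 0.976% and 0.765%, against 2.83%, 2.81%, 1.16%, 1.07% and 0.725% over the genome). The gained count was then 33, 25, 9, 12 or 31 (3.23%, 2.40%, 0.887%, 1.17% and 2.96%, against 4.58%, 4.01%, 2.66%, 2.69% and 4.89%).

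Fold enrichment was compared in the 288 regions with a peak in all 10 libraries, since every other member lacked a value in at least 1 library. Each library was centred on its median over the 9179 such regions of the genome, and limma was fitted to log2 folds of all 9179 with Benjamini-Hochberg adjustment at 0.05. Between the lines 68 regions (23.6%, against 21.1% over the genome) were higher in 17-71 and 41 (14.2%, against 19.0%) were lower. The median log2 difference was 0.05 on chromosome 11 and 0.00 over the genome. The split depended on centring: without it the counts were 23 higher and 76 lower (7.99% and 26.4%, against 6.98% and 31.4% over the genome), and the median difference was -0.12 on chromosome 11 and -0.16 over the genome.

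The regions of smallest p that were higher in 17-71 were chr11:22628712-22629732 (log2 difference 0.69, SE 0.07, limma adjusted p = 8.36e-06), chr11:65016164-65018583 (0.59, SE 0.07) and chr11:8696349-8697866 (0.62, SE 0.07). In the first, the uncentred folds were 6.40, 5.34, 5.58, 5.95 and 5.44 in 17-71 and 4.16, 3.47, 4.07, 3.80 and 4.62 in CLBL-1, with no overlap. This site lies in the window at 22 to 23 Mb, where CLBL-1 had the greater number of peaks. A shared site could thus be higher in the line with fewer peaks around it.

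The regions that were higher in CLBL-1 with smallest p were chr11:52188088-52191094 (log2 difference -0.82, SE 0.07, limma adjusted p = 3.31e-06), chr11:38886005-38888798 (-1.10, SE 0.10, adjusted p = 3.31e-06) and chr11:15712678-15714360 (-0.67, SE 0.07). In the first, the folds were 2.30, 2.25, 2.19, 2.82 and 2.40 in 17-71 and 4.98, 4.75, 4.84, 4.56 and 4.74 in CLBL-1. In the second they were 2.96 to 4.15 in 17-71 and 6.91 to 9.78 in CLBL-1. The groups did not overlap in either.

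C220 changed the fold of 1 of the 288 regions in 17-71 (higher, against 0.414% over the genome, and 0 lower, against 0.142%) and of none in CLBL-1 (0 higher and 0 lower, against 0.0% in both directions over the genome). At an unadjusted limma p under 0.05 there were 57 regions in 17-71 (19.8%, against 20.1% over the genome) and 16 in CLBL-1 (5.56%, against 4.01%). The 17-71 region was chr11:127155-128993, with folds of 3.38, 2.57 and 2.42 in controls and 4.10 and 3.37 with C220 (log2 difference 0.50, SE 0.10, limma adjusted p = 0.0400). B6 lay just below B1 before centring, so the groups overlapped. The call was lost without any 1 of the 8 libraries other than B1 and B6, and also without centring or with quantile normalization. Without B6 the counts in 17-71 were 15 higher and 3 lower (5.21% and 1.04%, against 4.64% and 2.08% over the genome), and without B1 they were 3 and 1 (1.04% and 0.347%, against 0.425% and 0.294%). The effect of C220 differed between the lines in 0 of the 288 regions at an adjusted p of 0.05 (limma interaction, against 0.0436% over the genome), and in 2 without B6 (0.694%, against 0.763%). At an unadjusted p under 0.05 there were 31 such regions (10.8%, against 11.8%).

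**Figure D5:**
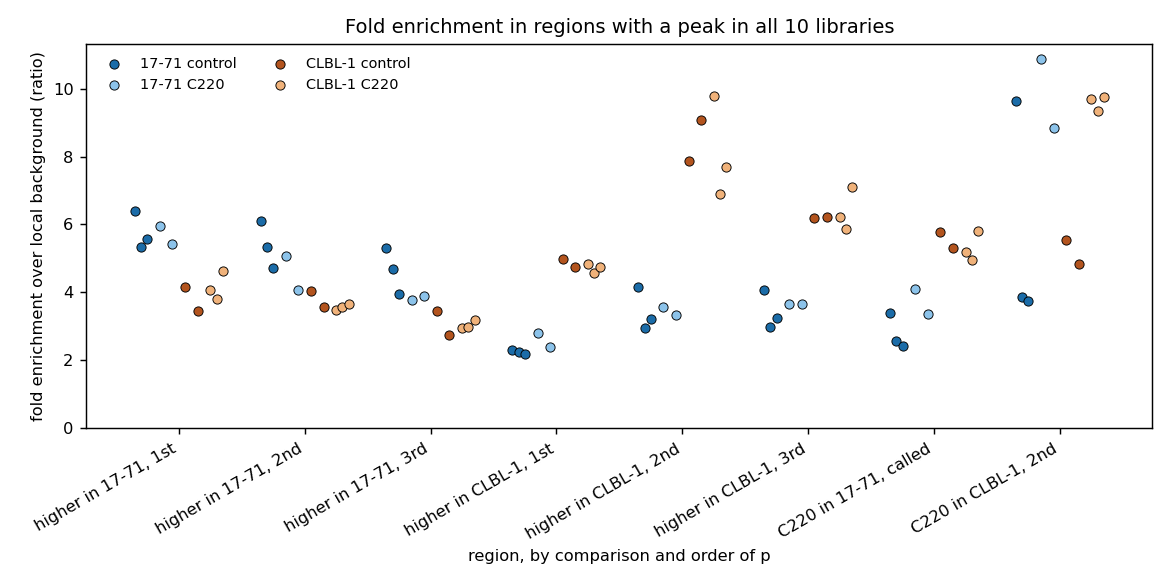
Fold enrichment (a ratio, before centring) in each library, coloured by group, for the 3 regions of smallest p higher in 17-71, the 3 higher in CLBL-1, the 1 region called for C220 in 17-71 and the region second by p among those higher with C220 in CLBL-1, which was not called. The lines separate in the first 6 regions, while in the last the C220 libraries of both lines and B1 lie between 8.83 and 10.9 and the other 4 libraries between 3.75 and 5.53.

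Further regions were near the threshold with C220 in 17-71. The folds at chr11:39622268-39623707 were 5.72, 4.41 and 4.27 in controls and 6.42 and 5.74 with C220 (log2 difference 0.42, SE 0.10, limma adjusted p = 0.0617), and at chr11:26142061-26143472 they were 5.77, 4.90 and 4.63 against 6.53 and 6.10 (0.38, SE 0.09, adjusted p = 0.0617). Lower values came from the TBC1D9B region given above, chr11:5799711-5801757 (-0.35, SE 0.10, adjusted p = 0.109) and chr11:3372688-3374556 (-0.39, SE 0.12, adjusted p = 0.112). None passed the threshold.

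In CLBL-1 the smallest p belonged to chr11:57317965-57319492, with folds of 3.87 and 3.17 in controls and 5.52, 4.56 and 4.99 with C220 (log2 difference 0.52, SE 0.10, limma adjusted p = 0.304). On the lower side, chr11:2031184-2032149 had 7.19 and 5.98 in controls and 5.08, 4.72 and 4.97 with C220 (-0.41, SE 0.11, adjusted p = 0.916). The groups did not overlap in either region, but over 9179 regions neither passed the threshold.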

How the data were processed

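Read pairs were aligned by the authors to CanFam3.1 with Bowtie2 2.2.4, and broad peaks were called per library with MACS2 (version not given in the sources used here) at a -log10 p of 5 with the human genome size setting. Samples that the study held to be outliers had been removed. The deposited lists give a fold enrichment (a ratio) and a -log10 p per peak. Neither was scaled between libraries, and the authors' score and q-value columns were not used.

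Peaks were merged over all 10 libraries where they touched or overlapped, and presence needed 1 bp. Windows of 1 Mb started at position 1, took peaks by midpoint and were tested from 10 peaks. The region's value was the largest fold of a library in it. Exact permutation tests were two-sided. The members, the gene lists and the rules for naming regions were chosen with earlier results of these data known. Named windows and regions were those of largest difference, strongest weakest peak, longest stretch, greatest width or fold, or smallest p. Merging, classes and both tests were tested on simulated data. Sequences, motifs and distances to genes were not analysed here. Python 3.11.15, R 4.3.3 and limma 3.58.1 were used.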

Additional observations from a re-analysis of the deposited data

How the results depend on the processing

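The chromosome share kept its direction in every alternative run, with -0.708 percentage points in control libraries alone, where no exact p can pass. Requiring a -log10 p of at least 10 gave 9 windows higher in 17-71, 43 and 89 strict regions of 17-71 and CLBL-1, 1 gained region in 17-71, 1 lost and 11 gained regions in CLBL-1, and a width difference with C220 in CLBL-1 of 25.5 bp in place of -11.3 bp. Lists of 20000 peaks gave 9 windows higher in 17-71, 17 lost and 18 gained regions in 17-71, 10 lost in CLBL-1, and C220 differences of -23.5 peaks and 24.2 bp in CLBL-1 and of -0.388 (17-71) and 0.0191 (CLBL-1) in median fold. Coverage of 50% of a region gave 91 strict 17-71 regions and 11 lost and 14 gained regions in CLBL-1. For the CLBL-1 counts of lost and gained regions under these alternatives, the shares over the genome are not given here. On the scale of peaks per 10000, windows of 2 Mb gave 9 higher in 17-71 and 18 in CLBL-1. Windows of 0.5 Mb gave 24 and 47, where the number of windows itself changes. The numbers tested and the shares over the genome are not given here for these sizes. This scale carries the share difference known beforehand, so these counts are a description. Relative to chromosome 11 peaks, 22 windows of 1 Mb were higher in 17-71 and 19 in CLBL-1 (32.4% and 27.9%, against 34.0% and 25.6% over the genome).

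For the fold, no centring gave 23 higher and 76 lower regions between the lines (7.99% and 26.4%, against 6.98% and 31.4% over the genome) and 0 with C220 in 17-71. A weakest -log10 p of 10 gave 25 and 14 (21.2% and 11.9%, against 18.1% and 16.9%) and 0, with fewer regions tested, and quantile normalization gave 0 with C220 in 17-71. With the mean over a region in place of its highest peak, chr11:67476214-67480754 turned from 0.89 to -0.19 (log2, C220 in CLBL-1). The causes were not tested. Leaving out 1 library gave 87 to 208 lost and 3 to 26 gained regions in 17-71, 5 to 46 and 4 to 33 in CLBL-1, 0 to 15 higher and 0 to 3 lower folds with C220 in 17-71 and 0 to 1 higher in CLBL-1, the 1 without B1. As B1 is a 17-71 library, its removal changed only the shared spread in that CLBL-1 comparison. The range over libraries left out was -0.142 to 0.310 (17-71) and -0.208 to 0.111 (CLBL-1) for the C220 difference in median fold and -49.3 to 26.7 bp for width in CLBL-1. For width in 17-71 it was -253 to -60.8 bp. For the number of peaks it was -394.5 to -204.5 in 17-71 and 3.5 to 72.5 in CLBL-1. Repeats of the named windows kept the call 136 times and lost it once (36 to 37 Mb), apart from those too sparse to be tested (47 to 48 and 30 to 31 Mb), and kept their direction 10 times in controls alone. Regions called by fold kept the call 82 times and lost it 10 times. Regions not called gained a call 3 times in repeats. Regions named for presence kept their class 20 times and lost it 8 times. No paired analysis was possible because the library names number the controls and the C220 libraries of a line in one series, with no number in both groups, and replicate numbers given in accession order pair nothing. Unknown read depth limits every statement on absent peaks.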

Other observations

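The emptiest part of chromosome 11 ran from 28661209 to 29756597 (CanFam3.1), the longest gap between members at 1095389 bp, against a median gap of 16221 bp. The window at 29 to 30 Mb held 1 peak over the 10 libraries, that at 31 to 32 Mb held 2, that at 46 to 47 Mb held 3 and that at 32 to 33 Mb held 4. These 4 windows were too sparse to be tested.

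The region chr11:67476214-67480754, which the study pairs with the gene ENSCAFG00000029351, took 1 of 2 levels. Its fold was 9.65 in B1, 10.9 in B4, 8.83 in B6, 9.70 in C4, 9.34 in C5 and 9.74 in C6, and it was 3.86 in B2, 3.75 in B3, 5.53 in C2 and 4.83 in C3. All 5 C220 libraries of both lines were thus at the higher level and 4 of the 5 controls at the lower, with B1 as the exception. The C220 difference in CLBL-1 did not pass the threshold with all libraries (log2 0.89, SE 0.23, limma adjusted p = 0.803) and passed it without B1 (adjusted p = 0.00317). The region was singled out after its values were seen, and its direction in CLBL-1 turned when the mean over the region replaced the highest peak.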
